A study of Salmo salar with 30 samples.

Results

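Heads of Atlantic salmon (Salmo salar) juveniles from families X22 and X35 were compared in the enriched rearing environment, in which eggs at the eyed stage were buried in gravel. The comparison took every juvenile of both families that had been reared with gravel, 5 of X22 and 5 of X35, which are 10 of the 30 arrays of the series. It was made across all microarray probes, and each difference is X22 minus X35. The other juveniles were 5 of X22 and 5 of X35 reared without gravel (unenriched) and 10 of family X11, 5 in each environment.

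Both families were full sibs of a wild mother from Little River, Newfoundland, and a farmed father of the Saint John River strain, whereas both parents of X11 were wild. Fertilized eggs of a family were divided at the eyed stage, and each family had 1 tank per environment. Family X35 was crossed later in the season than X22. Family, tank and time of the cross therefore cannot be told apart here. Whole heads, which held the brain, the eyes and the heart, were taken when the juveniles emerged at the end of yolk feeding, and 1 head was hybridized per array. No protein or behaviour was measured.

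The array was a 2-colour Agilent salmonid oligonucleotide array. Cy5 carried the RNA of a juvenile, and Cy3 carried a pool of the RNA of all juveniles on every array. A value is thus the log2 ratio of a juvenile over the pool after loess within the array: 0 equals the pool, and a difference of 1 between families is a 2-fold difference in ratio. In a whole head a lower value can come from fewer cells of a type or from less RNA per cell, and these cannot be told apart. Gene names were available for 2930 of the 20795 probes tested, from the study's supplementary lists, which the study had chosen for their response to gravel with these arrays among others. These names are not an independent sample of the array, and the other probes are given by their position on it.

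A full-sib family shares 1 mother and 1 father, so families differ in the alleles they carry, in yolk and other maternal provisions of the egg, and in the timing of development. A whole head at emergence mixes brain, sense organs, jaw and body-wall muscle, gill, skin, heart and blood. At this age salmon still rely largely on innate defences such as lysozyme, complement and interferon-induced proteins, while lymphocytes are being formed in the thymus beside the gills.

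The strength of the signals overlapped between the families but varied between arrays. The median Cy5 signal was 57 to 448 in X22 and 92 to 284 in X35. It was lowest in X22 juvenile 5 (57) and X35 juvenile 4 (92), whose log2 ratios had the widest spread (SD 0.82 and 0.68). With gravel, 35.1 to 41.9% of spots exceeded the background limit in Cy5 in X22 and 28.2 to 40.4% in X35, and the limit was passed in Cy3 by 48.0 to 52.1% of spots. Probes for the retinal lws opsin (C171R097), for the lens protein gamma-crystallin m2-like (C123R081), for myelin basic protein (C124R145) and for cardiac myosin binding protein (C146R110) were above the Cy5 limit on all 10 arrays. The lowest correlation between any 2 of the 30 arrays was -0.37, and the direction of the ratio was kept because the methods state the dyes. X22 juveniles 1 and 2 lay on slide 1, juvenile 3 on slide 2, juvenile 4 on slide 8 and juvenile 5 on slide 3, whereas X35 juveniles 1 to 3 lay on slide 7 and juveniles 4 and 5 on slide 8. Slide 8 alone held both families.

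Family X35 fell into 2 sets of juveniles. Across probes the array values of X35 juveniles 3, 4 and 5 correlated with each other at 0.46 to 0.65, and with X35 juveniles 1 and 2 at 0.16 to 0.29. Juveniles 1 and 2 of X35 correlated at 0.26 to 0.55 with X22, against -0.21 to 0.19 for X35 juveniles 3 to 5 with X22. Within X22 the correlations were 0.29 to 0.64. On the first principal component, which held 25.3% of the variance of 19207 probes, X22 ran between -127 and -19.1, X35 juveniles 1 and 2 stood at 3.66 and -21.8, and X35 juveniles 3 to 5 stood at 84.7, 99.5 and 79.2. The ends of this component, X22 juvenile 5 and X35 juvenile 4, were the arrays with the lowest median Cy5 signal. Whether signal strength plays a part was not tested. Slide 7 held juveniles of both sets (1, 2 and 3). The same division ran through X35 without gravel, where juveniles 3 to 5 correlated at 0.39 to 0.67 with X35 juveniles 3 to 5 with gravel, against -0.03 to 0.23 with juveniles 1 and 2 of their own tank. Results are therefore given with and without X35 juveniles 3 to 5.

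**Figure D1:**
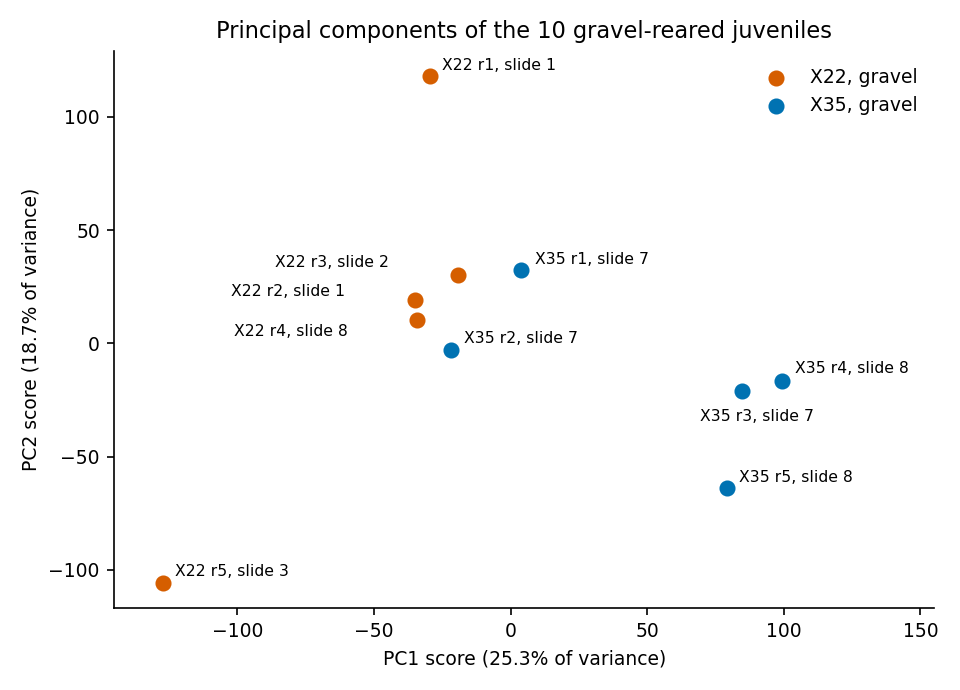
Scores of the 10 juveniles reared with gravel on the first 2 principal components (25.3% and 18.7% of the variance), with each point labelled by its replicate number (r) and slide. X35 juveniles 3 to 5 stand at 79.2 to 99.5 on the first component, while X35 juveniles 1 and 2 lie near X22 juveniles 2 to 4.

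Between the families, 97 of 20795 probes (0.466%) passed an FDR of 5% in limma with Benjamini-Hochberg adjustment. Of these, 55 (0.264%) were higher and 42 (0.202%) lower in X22. At an unadjusted p under 0.05 there were 3577 probes (17.2%), 1890 higher (9.09%) and 1687 lower (8.11%). The called probes differed by 0.69 or more on the log2 scale, with a median absolute difference of 1.36 against 0.233 over all probes, and the median SD within a family was 0.325 in X22 and 0.311 in X35. In 95 of the 97 called probes the values of one family did not overlap those of the other, whereas 4.88% of all probes had no overlap. X22 was above X35 in 54 of them, against 2.71% of all probes, and below it in 41, against 2.17%. Many were faint: 30 of the 97 were above the Cy5 limit on all 10 arrays, 26 of the higher ones were under it on all measured X35 arrays, and 9 of the lower ones were under it on all measured X22 arrays. When probes were filtered on Cy5 as well, 56 passed, 18 higher and 38 lower in X22, and the balance of directions thus changed with the faint probes.

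The differences had the same sign on slide 8, where X22 juvenile 4 lay beside X35 juveniles 4 and 5, in all 95 called probes measured there, against 76.7% of all probes. Slide 8 is part of the fit, so this is no independent test. Without X35 juveniles 3 to 5, 21 probes passed the FDR, 16 of them among the 97. The 95 called probes measured on X35 juvenile 1 or 2 kept their sign there, with a median absolute difference of 1.29. Where families do not overlap, as in 95 of the 97, leaving juveniles out cannot change the sign, so this is no test. Without X35 juveniles 1 and 2, 1291 passed. The number of calls thus depended strongly on which X35 juveniles entered. With X35 juveniles 3 to 5 alone the called probes had a median absolute difference of 1.44. They were chosen with all X35 juveniles, so these sizes are no independent measure of that dependence.

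The smallest p belonged to 7 probes without a gene name, which were singled out for it after their values were seen. The 7 probes were C192R066, C174R128, C061R131, C030R018, C186R149, C057R153 and C015R156. All 7 were lower in X22, by 1.74 to 2.30 on the log2 scale (adjusted p 0.00017 to 0.00096). Some other called probes, with larger p, differed by more on that scale. C192R066 stood at -0.68, -0.54, -0.73, -0.98 and -0.72 in X22, against 1.70, 1.58, 1.90, 1.33 and 1.33 in X35. Its difference was -2.30 (SE 0.16), -2.31 on slide 8 and -2.37 without X35 juveniles 3 to 5. Both sets of X35 juveniles lay on the same side of X22. The families did not overlap in this probe, which fixed that in advance, so it is no test.

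Over the 7 probes, values ran between -0.98 and -0.07 in X22 (median -0.56), against 1.00 to 1.94 in X35 (median 1.44). All were above the Cy5 limit on all 10 arrays. Without gravel the families stood apart again, at -1.34 to 0.33 in X22 and 0.76 to 2.38 in X35, with differences of 1.68 to 2.02 (adjusted p 0.0141 to 0.0205). Family X11 overlapped X22 and lay below X35, at -0.65 to 0.53 with gravel. The 7 probes moved together over the 30 arrays, with pairwise correlations of 0.93 to 0.98, and with 0.55 to 0.92 once the mean of each family and environment was removed. No sequence of these probes was used here, so whether several of them measure 1 transcript was not tested.

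Another unnamed probe, C170R100, was lower in X22 (difference -2.16, SE 0.26, adjusted p 0.0061), with -0.26, 0.27, 0.23, -0.50 and -0.26 in X22, against 2.91, 1.79, 2.23, 1.84 and 1.52 in X35. It too differed without gravel, by -1.44 (adjusted p 0.0277). Among the probes that were higher in X22, C126R012, singled out after its values were seen, differed by 3.03 with gravel (adjusted p 0.023) and 2.65 without it (adjusted p 0.011), with 3 of the 5 X35 arrays with gravel under the Cy5 limit.

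A pair of unnamed probes, C160R078 and C078R148, were named by the rule for rises in X22, and 1 juvenile broke the pattern in both. C160R078 stood at 0.73, 0.20, 0.52, -0.16 and 0.13 in X22, against -3.80, -3.76, -0.44, -3.31 and -3.26 in X35 (difference 3.20, SE 0.55, adjusted p 0.0331). C078R148 stood at -0.29, 0.02, 0.49, 1.18 and 0.72 in X22, against -3.18, -3.59, -0.54, -3.49 and -2.93 in X35 (difference 3.17, SE 0.53, adjusted p 0.0314). X35 juvenile 3 was thus close to X22, and the other 4 of X35 were far below and under the Cy5 limit, so the sizes of both differences rest on signals at background.

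The same split appeared in other groups. X35 juvenile 3 without gravel, another fish, stood at -0.25 and -0.35 for C160R078 and C078R148, whereas its 4 sibs stood at -3.16 to -2.16 and at -4.97 to -2.20. In X11 with gravel juvenile 3 was the low one, at -3.57 and -4.04, beside -0.95 to -0.07 and -0.77 to 0.22 in its sibs, and in X11 without gravel it was juvenile 1, at -2.27 and -2.29. The 2 probes correlated at 0.95 over the 30 arrays. All 10 juveniles of X22 were at -0.54 or higher in both.

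**Figure D2:**
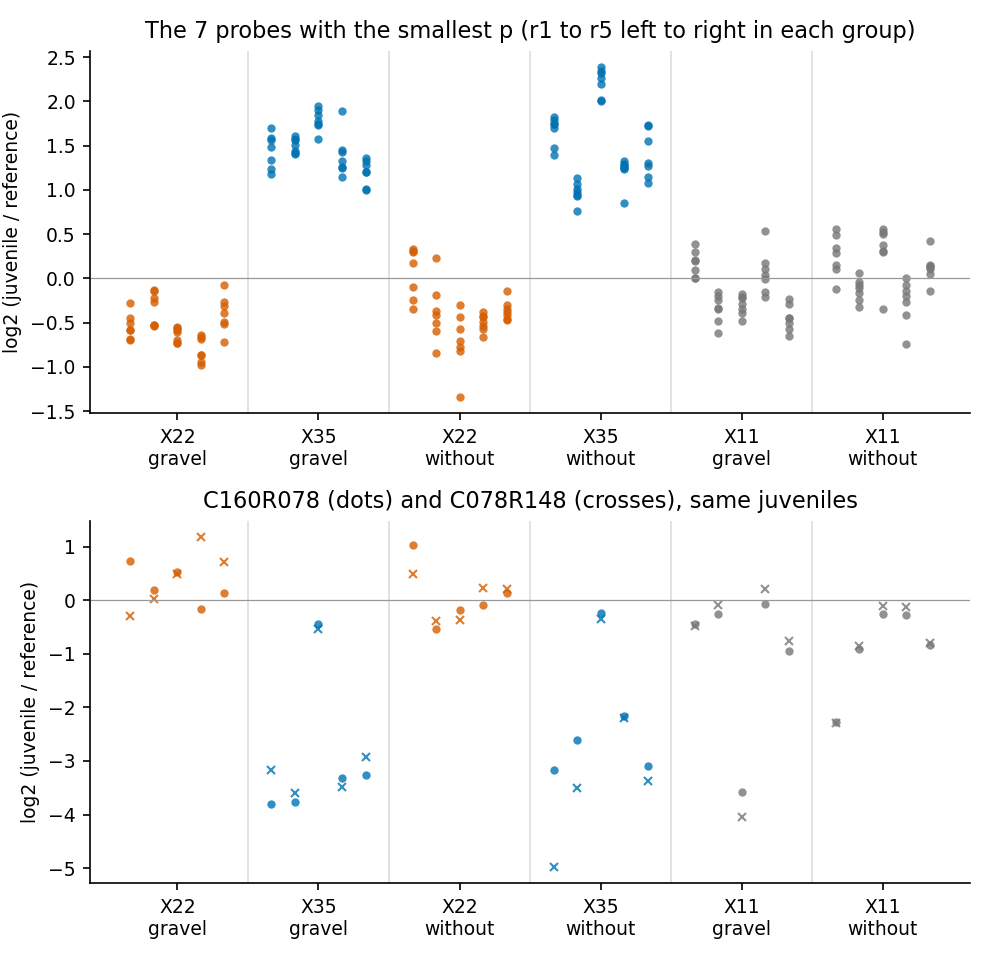
Log2 ratio to the reference pool in each juvenile of X22, X35 and X11, with and without gravel, of the 7 probes with the smallest p (upper panel, 1 dot per probe) and of C160R078 and C078R148 (lower panel, dots and crosses). The 7 probes stand at -0.98 to -0.07 in X22 and 1.00 to 1.94 in X35 with gravel, whereas for C160R078 and C078R148 X35 juvenile 3 (-0.44 and -0.54) lies just below the lowest X22 juvenile.

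Of the 97 called probes C002R150 had the largest fitted difference. It is a probe without a name that was also singled out after its values were seen. It was measured at 1.57, 1.50, 1.36, -0.24 and 1.51 in X22, against -5.63, -1.99 and -2.39 in X35 juveniles 1 to 3, and was not measured in X35 juveniles 4 and 5 (adjusted p 0.0457). Its Cy5 signal was 1996 to 4266.5 in X22, and 1 to 403 in X35, under the limit on every X35 array. Values of this probe also spread widely within families. Without gravel it ran between -2.02 and 1.57 in X22 and between -5.38 and -2.52 on 3 X35 arrays (difference 3.67, adjusted p 0.103). X11 ran between -3.35 and 1.35 with gravel and between -3.58 and 1.97 without it. With gravel an approximate bound on its fold, X22 over X35, was 9.98. This bound sets the mean of X22 against the lowest signal above the limit on the arrays of X35 juveniles 1 to 3, where the probe was measured. It uses Cy5 values normalized by loess and between arrays, and dye bias cannot be separated from it. The lowest signal above the limit is an extreme over many spots, so the fold can be smaller than this bound. Before normalization the limit on those X35 arrays was 649 to 834.

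Among the probes with a gene name, 16 of 2930 (0.546%) passed the FDR, 8 higher and 8 lower in X22. The rule for named probes asked for values on all 10 arrays, families that did not overlap and a clear Cy5 signal in the higher family. It kept 5 that were higher and 7 that were lower. None of these 12 passed when X35 juveniles 3 to 5 were left out (adjusted p 0.25 to 0.58). Each kept its direction there, which the rule of no overlap had fixed in advance. Over all alternatives their adjusted p ranged from 4.8e-05 to 0.58.

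Of the 5 that were higher in X22, 3 encode proteins that act on RNA or in transcription. The RNA helicase ddx49 (C039R102), of a family that unwinds RNA in ribosome assembly, stood at 0.40, 0.78, 0.54, 0.41 and 0.60 in X22, against -0.35, -0.16, -0.96, -0.71 and -1.13 in X35 (difference 1.21, SE 0.20, adjusted p 0.0287). Partner of y14 and mago (C041R055), which binds the exon junction complex left on spliced mRNA, stood at 0.19, 0.42, 0.13, 0.39 and 0.33 in X22, against -0.31, -0.41, -0.74, -0.53 and -0.33 in X35 (difference 0.76, SE 0.14, adjusted p 0.0433). Jun-b-like (C073R097), a subunit of the AP-1 transcription factor, stood at 0.74, 0.48, 0.61, 1.22 and 1.01 in X22, against -0.09, 0.10, -0.36, -0.29 and -0.67 in X35 (SE 0.19, adjusted p 0.0379). For ddx49 and jun-b-like the 3 lowest values were those of X35 juveniles 3 to 5.

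The other 2 that were higher belong to metabolism. NADH dehydrogenase subunit 5 (C235R104), a mitochondrially encoded subunit of respiratory complex I, stood at 0.17 to 0.29 in X22 and at -0.72, -0.52, -1.24, -1.17 and -1.03 in X35 (difference 1.17, SE 0.16, adjusted p 0.0123). Its SD was 0.045 in X22 and 0.307 in X35. Purine nucleoside phosphorylase-like (C150R072), an enzyme of purine salvage, stood at 0.37 to 0.69 in X22 and at -0.82 to -0.16 in X35 (difference 1.05, SE 0.16, adjusted p 0.0209), and every X35 array was too dim in Cy5 to pass the limit.

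Of the 7 that were lower in X22, the interferon-induced very large gtpase 1-like probe (C066R111), a member of a family of large GTPases induced by interferon, differed most. It stood at -2.44, -0.72, -0.42, -0.57 and 0.06 in X22, against 1.19, 1.49, 1.24, 1.74 and 2.29 in X35 (difference -2.41, SE 0.41, adjusted p 0.0314). All 5 X22 arrays were under the Cy5 limit. The approximate bound on the fold, X35 over X22, was 3.60, made as for C002R150 and with the same limits. X11 resembled X22 here, at -0.52 to -0.29 with gravel.

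Camp-responsive element-binding 2 (C237R111), a name used for bZIP transcription factors that bind cAMP response elements, stood at -1.30 to -0.52 in X22 and at -0.08 to 0.92 in X35 (difference -1.44, SE 0.22, adjusted p 0.0226). The 14-3-3 protein beta alpha (C206R148), an adaptor that binds phosphorylated proteins, stood at -1.18 to -0.13 in X22 and at 0.57 to 1.12 in X35 (difference -1.36, SE 0.20, adjusted p 0.0209). The kinase sgk1 (C016R010), which acts downstream of glucocorticoid and insulin signals on ion transport, stood at -0.82 to -0.04 in X22 and at 0.12 to 0.84 in X35 (difference -1.05, SE 0.19, adjusted p 0.0433). Under the Cy5 limit were 3 of 5 X22 arrays for camp-responsive element-binding 2, 2 for the 14-3-3 protein and 0 for sgk1. Regulatory and signalling proteins thus stood on both sides of the comparison, with jun-b-like higher and these 3 lower in X22.

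The remaining falls were those of 60s ribosomal protein l7 (C172R121), of the large ribosomal subunit, of c14orf159 (C252R013) and of adenylate kinase (C109R088), which balances adenine nucleotides. Ribosomal protein l7 stood at -0.72, -0.50, -0.30, -0.36 and -0.72 in X22, against 0.40, 0.32, 1.29, 0.72 and 0.59 in X35 (SE 0.20, adjusted p 0.0314). C14orf159 stood at -1.74 to -0.81 in X22 and at -0.08 to 0.54 in X35 (difference -1.23, SE 0.21, adjusted p 0.0314). Adenylate kinase stood at -0.90 to -0.58 in X22 and at -0.13 to 0.41 in X35 (difference -0.86, SE 0.15, adjusted p 0.0336). Of these 3, ribosomal protein l7 had its lower X35 values in juveniles 1 and 2, and its difference without juveniles 3 to 5 was -0.88. For ribosomal protein l7 and for c14orf159, 1 X22 array was under the Cy5 limit.

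**Figure D3:**
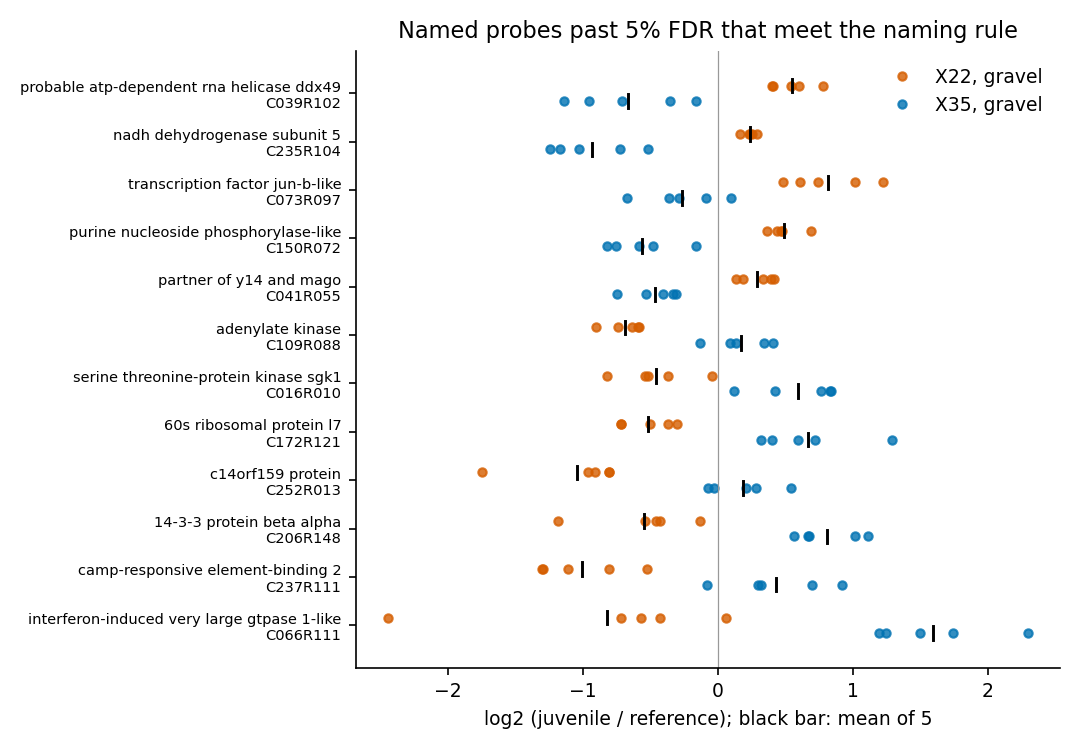
Log2 ratio to the reference pool of the 12 probes with a gene name that passed an FDR of 5% under the rule for named probes, in each X22 and X35 juvenile reared with gravel (X22 above X35 within a probe, black bars for the mean of 5). In all 12 the values of the families do not overlap; the interferon-induced very large gtpase 1-like probe differs most, by -2.41.

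Named probes that passed the FDR but not the rule were singled out after their values were seen. The 5'-3' exoribonuclease 2 (C039R087), which degrades nuclear RNA, was higher in X22 (adjusted p 0.0033). All 3 measured X35 arrays and 4 of 5 X22 arrays were under the Cy5 limit, so no fold is given. The RNA-binding protein lsm12 (C121R158) was higher in X22 by 1.42 (adjusted p 0.031), with 3 of 5 X35 arrays under the limit. A serine threonine protein kinase (C262R042) passed as well (adjusted p 0.043), but it was measured on 3 arrays per family and was under the limit on each of them, so no fold is given. Perforin-1-like (C025R167), the pore-forming protein of cytotoxic lymphocytes, was lower in X22 (difference -1.74, adjusted p 0.043), with overlapping values and all X22 arrays under the Cy5 limit.

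Close to the threshold without passing it, glutamate decarboxylase 1 (C050R160), which makes the transmitter GABA, differed by 0.87 (adjusted p 0.0553), sox-14 (C051R146), a transcription factor of interneurons, by 1.58 (adjusted p 0.0737) and the 26s proteasome non-atpase regulatory subunit 7 (C112R088) by 0.63 (adjusted p 0.0657). On the other side, the fish virus induced trim protein (C183R057), an antiviral RING-finger protein of salmonids, differed by -1.27 (adjusted p 0.0512), the phosphatidylinositol-binding clathrin assembly protein (C149R157) by -1.13 (adjusted p 0.0656) and secretagogin (C090R060), a calcium sensor of neuroendocrine cells, by -0.82 (adjusted p 0.0663). The rule had asked for families that did not overlap.

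Gene lists were described by counts and medians, beside all probes tested (median difference -0.01, 49.1% higher in X22). Their members came only from the study's lists of response to gravel, made with these arrays among others. They do not stand for all genes of a kind on the array. All probes tested are thus an unlike background, and shares at an unadjusted p among named probes alone are not given. Of 81 immune probes, 56 were lower in X22 and the median was -0.30. Of these, 26 (32.1%) were lower at an unadjusted p under 0.05, against 8.11% of all probes, 4 were higher at that p, and 1, the interferon-induced GTPase, passed the FDR. Perforin-1-like, which also passed and is given above, was not on the list. Of the 81 probes, 11 were under the Cy5 limit on every measured array of both families. The median difference was -0.27 without X35 juveniles 3 to 5, -0.47 on slide 8 and -0.21 without gravel. It was -0.15 with normexp background. The per-juvenile median of the list overlapped between the families, at -0.49 to 0.17 in X22 and 0.13 to 0.25 in X35.

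Members of the immune list came from several branches of defence. The interferon-induced GTPase and the fish virus induced trim protein are given above, and 5 others were picked after their values were seen. Lysozyme c ii (C172R005), a bacteria-lysing enzyme, had a mean of -0.73 ± 0.49 in X22 and 0.28 ± 0.24 in X35 (SD, n = 5 each, difference -1.02, adjusted p 0.085). C-c motif chemokine 25 (C124R054), which draws T cell precursors to the thymus in mammals, had a mean of -0.33 ± 0.24 in X22 and 0.36 ± 0.23 in X35 (difference -0.69, adjusted p 0.098). T-cell receptor gamma (C200R010) differed by -1.75 (adjusted p 0.112) and the T-cell surface chain cd3 zeta (C241R010) by -1.17 (adjusted p 0.150), while the tetraspanin cd63 (C182R004) differed the other way, by 1.17 (adjusted p 0.053). None of these 5 passed the FDR.

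Of 41 probes for skeletal muscle contraction, 37 were lower in X22, with a median of -0.33. At an unadjusted p under 0.05, 15 (36.6%) were lower and 0 higher, against 8.11% and 9.09% of all probes, and 0 passed the FDR. The median of the list did not overlap between families, at -0.63 to -0.13 in X22 and -0.10 to 0.11 in X35. The median difference was -0.36 without X35 juveniles 3 to 5, -0.53 on slide 8 and -0.21 without gravel. With X35 juveniles 3 to 5 alone it was -0.39, so both sets of X35 juveniles gave a median of like size. With normexp background the median difference was -0.24.

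Members of that list came from different parts of the sarcomere and its calcium supply. Myomesin-1 (C094R169), which links thick filaments, had a mean of -0.73 ± 0.16 in X22 and 0.15 ± 0.40 in X35 (adjusted p 0.0793). Parvalbumin-7-like (C200R008), a calcium buffer of fast muscle, had a mean of -1.15 ± 0.59 in X22 and 0.09 ± 0.41 in X35 (adjusted p 0.091). Obscurin (C176R014), a giant protein around myofibrils, differed by -1.08, a myosin heavy chain (C029R109) by -0.93 and triadin (C106R056), of the calcium release complex, by -0.51. The families did not overlap in these 5 probes. Over the list X22 lay below X35 without overlap in 7 of 41 probes, against 2.17% of all probes. Myomesin-1 was named by rule and the others were picked after their values were seen. None of the 5 passed the FDR. Of 12 heart muscle probes, 8 were lower in X22, with a median of -0.14 that turned to 0.08 without X35 juveniles 3 to 5, and of 63 heart development probes 47 were lower, with a median of -0.20 and of -0.05 without those juveniles. Without X22 juvenile 5 alone these medians were -0.05 for heart muscle and -0.07 for heart development, without X35 juvenile 4 alone the first was -0.08, and with normexp background both were -0.02.

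Probes for mRNA splicing leaned the other way. Of 40, 29 were higher in X22 with a median of 0.30, and 10 were higher at an unadjusted p under 0.05 against 9.09% of all probes, while 2 were lower at that p and 0 passed the FDR. The median of the list was -0.06 to 0.17 in X22 and -0.46 to -0.09 in X35. The difference was 0.16 without X35 juveniles 3 to 5. Splicing arginine serine-rich 2 (C174R079), an SR protein that marks exons, had a mean of 0.53 ± 0.18 in X22 and -0.43 ± 0.48 in X35 (adjusted p 0.0901). Splicing factor 3a subunit 3 (C261R155), of the U2 particle, differed by 2.29 over all juveniles (adjusted p 0.111) and by 0.78 without X35 juveniles 3 to 5. This last probe was picked after its values were seen.

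For oxidative phosphorylation the sign rested on 3 juveniles. Of 52 probes, 40 were lower in X22 with a median of -0.23. At an unadjusted p under 0.05, 10 (19.2%) were lower and 2 (3.85%) higher, against 8.11% and 9.09% of all probes. Without X35 juveniles 3 to 5 the median was 0.10, and it was -0.40 without X35 juvenile 2, -0.14 without juvenile 3, -0.15 without juvenile 4 and -0.14 with normexp background. The list stood at -0.35 to -0.13 in X22, at -0.51 and -0.29 in X35 juveniles 1 and 2, and at 0.01 to 0.22 in X35 juveniles 3 to 5. Subunits of complex I differed in direction: subunit 5 was higher in X22 as given above, whereas NADH dehydrogenase subunit 4 (C197R079) differed by -0.84 (adjusted p 0.101), subunit 1 (C120R022) by -1.44 (adjusted p 0.118) and subunit 3 (C065R038) by -0.69 (adjusted p 0.245). The probes of subunits 4, 1 and 3 were picked after their values were seen.

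Neuronal and synaptic probes behaved in a similar way. Of 46, 31 were higher in X22 with a median of 0.24, which turned to -0.08 without X35 juveniles 3 to 5. At an unadjusted p under 0.05, 8 (17.4%) were higher and 2 (4.35%) lower, against 9.09% and 8.11% of all probes. Doublecortin (C071R142), which marks migrating neurons, differed by 1.76 over all juveniles and by -0.07 without those 3, and glutamate receptor u1-like (C007R036) by 1.92 and 0.17. Both probes were picked after their values were seen. Skin and epithelium had 16 of 26 higher, with a median of 0.23 and of -0.02 without those juveniles, and extracellular matrix 16 of 27, with a median of 0.16 and of -0.03. In all 3 lists the medians of X35 juveniles 1 and 2 were above those of X35 juveniles 3 to 5. Single juveniles moved these medians too. The neuronal median was 0.09 without X22 juvenile 1, 0.16 without X35 juvenile 4, 0.12 without X35 juvenile 5 and 0.09 with normexp background. That of skin was 0.09 without X22 juvenile 3, 0.14 without X35 juvenile 4 and 0.12 with normexp background. That of extracellular matrix was 0.06 without X22 juvenile 1 or 3, 0.29 without X35 juvenile 2, 0.0045 without X35 juvenile 3 and 0.10 with normexp background.

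The other lists showed small medians or few members. Of 94 ubiquitin and proteasome probes 58 were higher in X22 (median 0.13), of 55 ribosome and translation probes 25 (median -0.02) and of 121 cell cycle probes 59 (median -0.02). Of 10 probes for plasma proteins and lipid transport 9 were lower (median -0.52), led by transferrin (C233R116), the iron carrier of blood, at -0.95 to -0.38 in X22 and -0.24 to 0.19 in X35 (difference -0.61, adjusted p 0.0989). Of these 10 probes, 4 were under the Cy5 limit on every measured array of both families, as were 26 of the 121 cell cycle probes. Heat shock proteins and chaperones had a median of 0.09 over 23 probes, transposable elements -0.07 over 27, and xenobiotic and redox enzymes -0.02 over 25. Markers of blood (9 probes, median -0.15), retina (6, median -0.23) and lens (3, median 0.04) were few, as were myelin and ependymin probes (9 in 1 list, median 0.05). Without X35 juveniles 3 to 5 the median turned to 0.10 for ribosome and translation, 0.19 for cell cycle, 0.10 for blood and 0.03 for transposable elements. It turned to -0.07 for heat shock proteins and -0.02 for myelin and ependymin, and it was 0.54 for lens and -0.30 for plasma proteins. Leaving out 1 juvenile gave -0.34 for plasma proteins (X22 juvenile 3), 0.07 for ubiquitin and proteasome (X22 juvenile 5), -0.15 for retina (X22 juvenile 2), 0.06 for blood (X35 juvenile 5) and -0.24 to 0.19 for lens. With normexp background the median was -0.17 for plasma proteins, and it turned to 0.14 for retina, 0.13 for cell cycle and 0.09 for ribosome and translation. Other small medians turned as well, to 0.04 for xenobiotic and redox enzymes, 0.0035 for transposable elements, -0.0073 for lens and -3.1e-05 for myelin and ependymin. Apart from nadh dehydrogenase subunit 5, the interferon-induced GTPase and ribosomal protein l7, 0 members of any list passed the FDR.

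**Figure D4:**
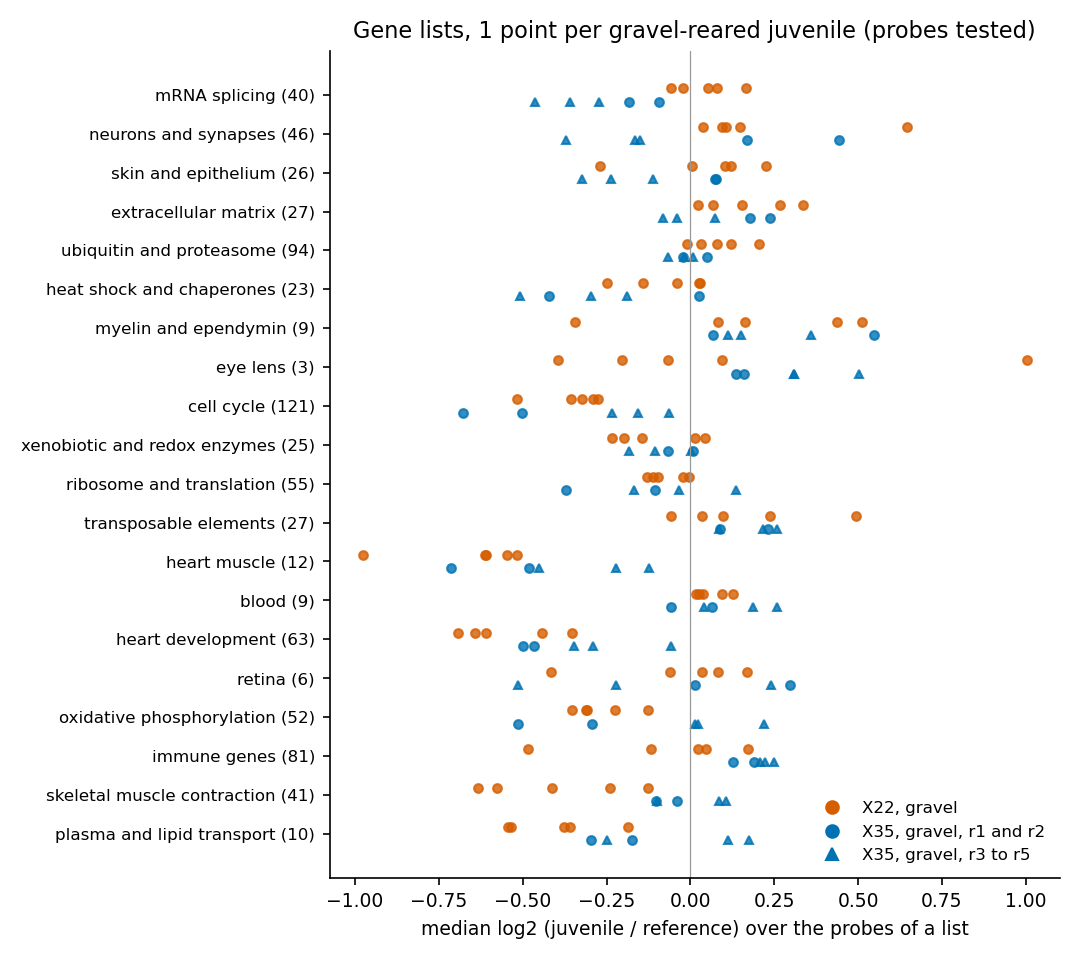
Median log2 ratio to the reference pool of each gene list in each juvenile reared with gravel, X22 above X35 within a list, with X35 juveniles 3 to 5 marked apart. The skeletal muscle contraction list does not overlap between families (-0.63 to -0.13 in X22, -0.10 to 0.11 in X35), whereas oxidative phosphorylation separates X35 juveniles 3 to 5 from the rest.

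The same families were then compared without gravel, in other juveniles and other tanks. There 88 of 21110 probes (0.417%) passed the FDR, 35 higher and 53 lower in X22, and 4049 (19.2%) had an unadjusted p under 0.05. Of the 97 probes called with gravel, 95 had the same sign without it, against 66.6% of all probes. With the same sign, 67 of the 97 had an unadjusted p under 0.05 against 15.9% of all probes, and the families did not overlap in 37 against 3.96%. The probes that were higher in X22 with gravel had a median of 1.38 with gravel and 0.94 without it, and those that were lower had -1.33 with gravel and -0.96 without it. Some slides, the reference pool and the parents were shared between both comparisons, and X35 juveniles 3 to 5 stood apart in both. Without gravel X22 lay on slides 1 and 2 and X35 on slides 6 and 7. No slide held both families there, so slide and family cannot be told apart in that comparison. Without X35 juveniles 3 to 5 in the comparison without gravel, 77 of 94 called probes tested kept the sign, against 52.1% of all probes, 41 of them at an unadjusted p under 0.05 against 5.88%, and 27 probes passed the FDR there.

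Both environments called 17 probes, 5 higher and 12 lower in X22, and 0 with opposite signs. They were 17.5% of the calls with gravel and 19.3% of those without it. Among named probes they were the interferon-induced GTPase (C066R111; -2.41 with gravel, -2.85 without, adjusted p 0.0337), the 14-3-3 protein (C206R148; -1.36 and -1.14, adjusted p 0.0344) and ribosomal protein l7 (C172R121; -1.18 without gravel, adjusted p 0.0181). Without gravel the interferon-induced GTPase stood at -0.41, -3.08, -0.30, -0.41 and -0.86 in X22, against 1.98, 1.35, 2.06, 2.11 and 1.71 in X35. No named probe was higher in X22 past the FDR in both environments. The 12 lower probes included the 7 unnamed ones with the smallest p, which moved together. Whether those 7 measure 1 transcript was not tested, so the 17 may not be separate transcripts.

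Other named probes differed between the families with gravel and hardly without it. NADH dehydrogenase subunit 5 (C235R104) differed by 1.17 with gravel and -0.01 without it, where it stood at -0.65 to 0.82 in X22 and -0.25 to 0.71 in X35. Sgk1 (C016R010) differed by -1.05 with gravel and 0.04 without it, adenylate kinase (C109R088) by -0.86 and -0.04, and partner of y14 and mago (C041R055) by 0.76 with gravel and under 0.01 without it. The difference of these differences was tested as the interaction of family and environment over the 20 arrays of both families. At an FDR of 5%, 0 of 20777 probes passed in limma, and 1216 (5.85%) had an unadjusted p under 0.05, among them 23 of the 97 called probes. The 97 were chosen by their difference with gravel, which is part of the interaction, so the 23 are no independent test. The interaction had an unadjusted p of 0.0018 for NADH dehydrogenase subunit 5, 0.017 for sgk1, 0.0055 for adenylate kinase and 0.0081 for partner of y14 and mago. These probes were picked for a large difference with gravel and a small one without it, so the same limit holds for them.

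The 5 named probes with the smallest p in the interaction (0.00011 to 0.00046, adjusted p 0.816) were transcription termination factor 1-like (C194R001), the RNA helicase ddx1 (C173R009), the insulin-like growth factor 1 receptor (C034R106), the splicing regulator hnrnp l (C018R137) and protein regulator of cytokinesis 1 (C202R134). The insulin-like growth factor 1 receptor, through which growth signals act, differed by 0.64 with gravel (0.10 to 1.76 in X22, -0.23 to 0.55 in X35) and by -0.73 without it (-0.35 to 0.18 in X22, 0.46 to 0.89 in X35). The receptor was under the Cy5 limit on all 5 X35 arrays and 1 X22 array with gravel, and on 4 arrays of each family without it. Both of its differences thus rest largely on signals at background. Hnrnp l differed by 1.29 with gravel and -0.84 without it. Ddx1, protein regulator of cytokinesis 1 and transcription termination factor 1-like were under the Cy5 limit on every measured array of both families with gravel, so no size is given for them there. Without gravel transcription termination factor 1-like differed by 2.29 and passed the FDR (adjusted p 0.0105). There 4 of 5 X22 arrays and all 5 X35 arrays were under the Cy5 limit, so this size too rests largely on signals at background. Of these 5, none passed the FDR in the comparison with gravel. Their names came from the study's lists of response to gravel, made with these arrays among others. That response enters the interaction, so their p are no independent test.

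**Figure D5:**
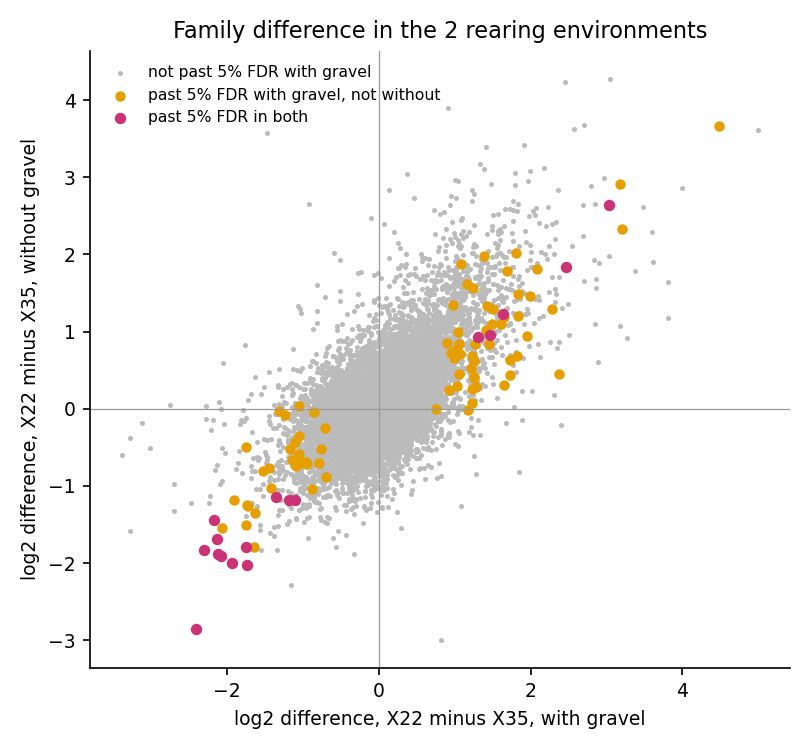
Log2 difference X22 minus X35 without gravel against that with gravel, 1 point per probe tested in both environments (20777), with the probes past an FDR of 5% in both environments or with gravel alone coloured. Of the 97 probes called with gravel, 95 have the same sign without gravel, and 17 pass in both.

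Some probes gave a Cy5 signal in every juvenile of one family and in none of the other. Of 39835 probes without a flag on the 10 arrays, 11360 were above the Cy5 limit on all 10 and 20487 under it on all 10. Above the limit in all 5 X22 and under it in all 5 X35 were 15, and the reverse held for 2. The limit differed between arrays, 383 to 926 in X22 and 649 to 981 in X35, and it was lowest in X22 juveniles 5 and 3 (383 and 474), where a signal of the same brightness passed more easily. Among the 15 were C002R150, given above, and 4 probes whose Cy3 signal was too low for a log2 ratio.

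Of those 4, C246R033 gave Cy5 signals of 731 to 3465.5 in X22 and 35 to 402 in X35, C248R119 803.5 to 4197.5 in X22 and 1 to 552.5 in X35, C155R124 871.5 to 2849 in X22 and 1 to 554 in X35, and C071R160 384 to 1941 in X22 and 1 to 429 in X35. C246R033 and C248R119 were above the limit in all 5 X22 and in 0 of 5 X35 without gravel too, and in 0 of 10 X11 juveniles. They were the only 2 of the 15 with that division of X22 and X35 without gravel. There C155R124 was above the limit in 5 X22 and 1 X35, and C071R160 in 2 X22 and 0 X35. The Cy3 signal of the pool had a median of 1 for C248R119 and for C155R124, and of 304 for C246R033. For C248R119 it ran from 1 to 77.5 and for C155R124 from 1 to 117.5, above the Cy3 limit on 0 of 10 arrays. The pool held RNA of the X22 juveniles too, so it did not show the signal that X22 gave in Cy5. Whether the Cy5 signal of these 2 probes comes from a transcript was not tested. The 2 probes seen in X35 alone were C163R079, with Cy5 signals of 342.5 to 679 in X22 and 668 to 3639 in X35, and C086R148, named mitogen-activated protein kinase kinase kinase kinase 5, with 264 to 811 in X22 and 661 to 1379 in X35. Neither kept that division without gravel: C163R079 was above the limit in 3 of 5 X22 and 5 of 5 X35, and C086R148 in 4 of 5 of each family. The Cy5 signals given are unnormalized. As log2 ratios with gravel C163R079 (-1.32, adjusted p 0.140) and C086R148 (-0.86, adjusted p 0.219) did not pass the FDR. Nor did C246R033 (2.07, adjusted p 0.222) and C071R160 (2.15, adjusted p 0.177) in a fit without the Cy3 filter, while C248R119 and C155R124 could not be tested.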

How the data were processed

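The authors deposited scanner intensity values, extracted with Imagene as medians of spots and local backgrounds without normalization, and a table of log2 ratios (21117 probes) that they made with marray loess and LSimpute imputation. Here log2 Cy5 over Cy3 was recomputed from the deposited intensities by the same steps without imputation: background-subtracted medians, spots flagged 1 or 2 or with Cy3 under the background mean plus 2 SD removed, loess (span 0.4, 5 iterations), and probes missing on more than 7 of 30 arrays left out. This kept 21136 probes with 1.08% of values missing. The lowest correlation of an array with the authors' column was 0.9974, and the medians of those columns ran between -0.074 and -0.004. The Cy5 limit was set like that of Cy3. The number of arrays limits the precision.

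Families were compared with limma 3.58.1 in R 4.3.3 (lmFit and eBayes, two-sided, Benjamini-Hochberg over all probes tested, FDR of 5%), on the 10 arrays of an environment, for probes with 3 or more arrays per family. The scripts were tested on simulated data. Replicates are separate juveniles of 1 tank, so p-values measure the spread within tanks.

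Named probes were, by rule, up to 12 rises and 12 falls past the FDR with all 10 values, families apart and Cy5 above the limit on 3 or more arrays of the higher family, filled by smallest p; the 2 largest such rises and falls without a name; the leading members of each list; probes past the FDR in both environments; and the 5 smallest interaction p. The members and lists were chosen with earlier results of these data known. Names came from the supplement, and no probe matched the reference table by accession. Alternatives are given in the closing section: the authors' values, background correction, scaling, filters, array weights, slide and replicate blocks, all 30 arrays, SAM, and juveniles left out.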

Additional observations from a re-analysis of the deposited data

Results flagged for a closer look

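Over 130 groups of 5 juveniles (named probes and list medians, each in X22 and in X35 with gravel), 8 held a juvenile far from its 4 sibs by Dixon's criterion, 5 in X22 and 3 in X35. Chance alone flags about 1 in 20 groups. In X22 these were juvenile 5 for c14orf159 (C252R013), at -1.74, juvenile 1 for unconventional myosin-ic-like (C196R093), at -0.88, juvenile 1 for t-complex protein 1 subunit alpha (C222R095), a chaperonin subunit, at 1.02, juvenile 5 for the median of the heart muscle list, at -0.98, and juvenile 1 for that of the neurons and synapses list, at 0.65. In X35 they were juvenile 3 for C160R078, at -0.44, and for C078R148, at -0.54, and juvenile 1 for myelin basic protein (C124R145), at 1.58.

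Of the probes that the comparison of log2 ratios did not use because of their low Cy3 signal, 4 were above the Cy5 limit in every X22 juvenile reared with gravel and in no X35 juvenile. Their median Cy5 signal in X22 was 1175 for C246R033, 1111 for C248R119, 1621.5 for C155R124 and 825.5 for C071R160.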

How the results depend on the processing

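The 97 calls with gravel became 118 with the authors' values, 122 with arrays scaled to 1 spread, 75 with slide as a random block and 95 among probes measured on all 10 arrays. The count was 52 with normexp background, 39 without the Cy3 filter, 56 with a Cy5 filter as well (32.1% of them higher in X22, against 56.7%), 582 with array weights, 610 in a fit of all 30 arrays and 1014 with SAM. With slide as a fixed block, where only slide 8 informs, 0 passed in limma, and 1918 of 20685 probes had an unadjusted p under 0.05. Leaving out 1 juvenile gave 25 to 152 calls: 51, 28, 25, 46 and 46 without X22 juveniles 1 to 5 in turn, and 109, 152, 25, 28 and 28 without X35 juveniles 1 to 5 in turn. It was 21 without X35 juveniles 3 to 5 together and 1291 without X35 juveniles 1 and 2 together. Settings that leave juveniles out rest on fewer samples, and the cause of the other changes was not tested. For X22 against X35 without gravel the 88 calls became 141 with normexp background and 328 with slide as a random block, and 27 without X35 juveniles 3 to 5 of that environment, an alternative chosen after seeing the data. No slide held both families without gravel, so a slide block cannot separate slide from family there. The interaction called 0 in limma under each alternative run.

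No label ties same-numbered juveniles, and the replicate numbers were not taken as pairs: the correlation of same-numbered deviations was over 0.1 for numbers 1, 3 and 5 (0.30, 0.18 and 0.11), whose X22 juveniles also correlated best with their own number, and not for the other two. With a replicate block, 17 probes passed with gravel (6 higher and 11 lower in X22, 16 of them among the 97), 7 without gravel and 0 in the interaction. Of the 12 called named probes 2 still passed, the interferon-induced GTPase and camp-responsive element-binding 2.

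All 12 called named probes kept their direction in every alternative, as did 30 of 31 uncalled ones. For the 12, whose families do not overlap, the direction was fixed in advance wherever juveniles were only left out. With slide as a fixed block, the non-ltr retrotransposable element (C223R044) reversed to -0.030, and transcription termination factor 1-like (C194R001) could not be fitted because no slide had it measured in both families.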

Other observations

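Family X11, with a wild father, was not part of the comparison, and its juveniles give another position for the 97 called probes. With gravel its mean was nearer that of X22 in 73 of the 97 and nearer that of X35 in 24, against 60.1% of all probes that were nearer X22. It lay between the means of both families in 69, against 29.1% of all probes, and called probes had widely separated means to begin with. Of the 55 probes that were higher in X22, X11 was nearer X22 in 42, and of the 42 that were lower, in 31.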
